A study of Mus musculus with 10 samples.

Results

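Cytochromes P450 of families 1 to 3 are the haem enzymes of the endoplasmic reticulum that oxidise drugs, pollutants, steroids and fatty acids, and the liver holds most of the body's supply. They receive their electrons from NADPH through 1 shared reductase, encoded by Por. Their genes lie in clusters of near-copies, and their transcription in hepatocytes is set by xenobiotic receptors (AHR, CAR, PXR), by liver factors such as HNF4A and, for the many members that differ between male and female mice, by the pulses of growth hormone acting through STAT5B. The group described here holds every gene of the deposited count table whose symbol is Cyp followed by 1, 2 or 3, a subfamily letter and a number with no further letter (57 genes in 16 subfamilies), together with Por, which makes 58 of 19764 genes.

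The RNA came from whole liver of female mice and was selected for poly(A). The GRMAC mice carried GRflox alleles, a floxed glucocorticoid receptor gene (Nr3c1), together with 1 copy of LysM-Cre, which is expressed in macrophages and other myeloid cells, whereas their GRflox littermates carried the floxed gene without Cre. All mice had fasted for 8 h from ZT12, so every liver compared was a fasted one, and because the GRflox mice had no Cre, presence of Cre and deletion of the receptor cannot be told apart. Each genotype had 5 libraries, which the labels number without stating that each is a separate animal, so p-values measure the spread between these libraries. Library totals ran from 23258884 to 26116916 counts in GRMAC and from 25697931 to 27692528 in GRflox. Levels are given as CPM, a gene's reads relative to the TMM-scaled total of its library, and a log2 fold change is GRMAC over GRflox from edgeR's quasi-likelihood test, in which p-values were adjusted by Benjamini-Hochberg over all 12558 tested genes.

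The samples are liver by their markers: 11 hepatocyte genes summed to 139981 to 161765 CPM in GRMAC and to 140135 to 155987 CPM in GRflox. Cd163, a scavenger receptor of resident macrophages, was lower in GRMAC (3.07 ± 0.493 against 28.8 ± 7.81 CPM, adjusted p = 2.55e-05, edgeR), while 13 Kupffer cell genes together summed to 301 to 425 CPM in GRMAC and 279 to 373 CPM in GRflox. Cd163 is itself among the 13, of which 9 had a positive and 4 a negative log2 fold change, so the sum joins opposite directions. Cd5l, also among them, was at 67.9 ± 12.5 CPM in GRMAC and 46.2 ± 7.27 CPM in GRflox (adjusted p = 0.0928, edgeR, and 0.00560 in the authors' deposited DESeq2 table). Nr3c1 itself was at 74.7 to 94.0 CPM in GRMAC and 63.8 to 81.2 CPM in GRflox, a level that whole liver and 1 count per gene leave uninformative about the deletion. In whole liver, fewer cells of a type and less RNA per cell cannot be told apart.

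Of the 58 members, 46 had enough counts to be tested, and none of the 46 differed between GRMAC and GRflox liver at an adjusted p under 0.05 with edgeR, where 22 of all tested genes did (0.175%). The lowest adjusted p among the members was 0.110 (edgeR), for Cyp2b9. The other 12 members were below the filter on low counts, at no more than 1.241 CPM in any library (Cyp2d34 in GRflox 2), and 4 of these (Cyp2b23, Cyp2j12, Cyp2j13 and Cyp2w1) had no count at all. At an unadjusted p under 0.05 in edgeR there were 8 members (17.4%), a share close to the 16.3% of all tested genes; 7 of the 8 were higher in GRMAC and 1 was lower, where 8.58% of all tested genes were higher and 7.75% lower. Cyp2b9 and Cyp2c38, 2 of the 46, were past an adjusted p of 0.05 in the authors' deposited table, both higher in GRMAC, against 3.33% of all genes with an adjusted p there (1.84% higher and 1.49% lower). DESeq2 refitted to the same counts called the same 2 members, against 3.48% of all genes. On counts simulated with edgeR's own estimates of spread, DESeq2 made more false calls at this threshold than edgeR did. These 2 calls may be less firm than an edgeR call, but the simulation cannot decide this, since it was built from edgeR's fit and need not match the data. The libraries of the genotypes did not overlap for 1 member, Cyp1b1 (2.17% of the tested members), where 4.05% of all tested genes did not overlap.

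The direction of the differences was uneven. The log2 fold change was positive for 31 members and negative for 15, so 67.4% were higher in GRMAC, against 50.2% of all tested genes. Much of this excess lay in 2 subfamilies, Cyp2c (11 positive and 2 negative) and Cyp3a (6 positive and 0 negative). The other subfamilies with several genes were mixed: Cyp2a had 2 positive and 2 negative, Cyp2b 2 and 1, Cyp2d 2 and 4, Cyp2j 3 and 1, and Cyp1a 1 and 1. The median over the members was 0.17, against 0.00 over all tested genes, and single members ranged from −0.72 (Cyp1b1) to 0.89 (Cyp2s1). These genes share regulators, clusters and reads, so they are not 46 separate observations. Without GRMAC 2 the median was 0.03. Without GRflox 5 it was 0.10 and without GRflox 1 it was 0.11, while leaving out any other single library gave 0.13 to 0.21. The members also varied more between libraries than most genes did, with a median SE of the log2 fold change of 0.18, against 0.0971 over all tested genes.

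**Figure D1:**
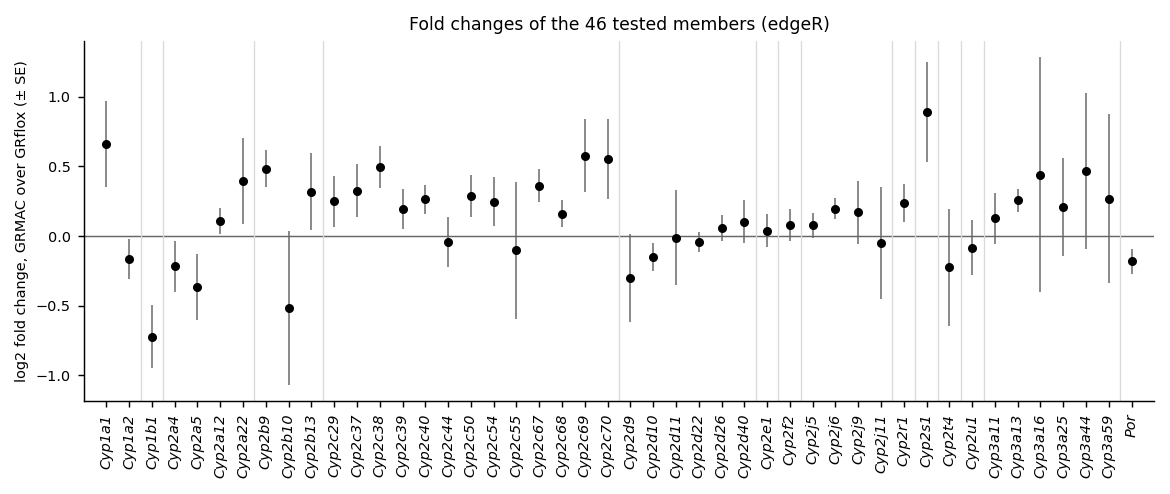
The log2 fold change of GRMAC over GRflox (vertical axis) is plotted for each of the 46 tested members, ordered by subfamily along the horizontal axis, with bars of 1 SE from the edgeR fit (n = 5 libraries per genotype). Most points of the Cyp2c and Cyp3a subfamilies lie above 0, the Cyp1a and Cyp2d subfamilies have points on both sides, and the widest bars belong to Cyp3a16, Cyp3a59, Cyp3a44 and Cyp2b10.

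Together the 57 P450 genes held 2.51% of the counts in GRMAC and 2.34% in GRflox liver, at 25053 ± 3480 CPM and 23442 ± 3093 CPM (SD, n = 5). The sums ran from 20990 to 29927 CPM in GRMAC and from 20918 to 28605 CPM in GRflox, so the genotypes overlapped over nearly the whole range. Scaled by transcript length, the order of the levels was led by Cyp2e1, with 4079 CPM per kb in GRMAC and 3971 CPM per kb in GRflox. Cyp3a11 followed at 1867 CPM per kb in GRMAC and 1710 CPM per kb in GRflox. Behind these came Cyp3a25 (806 CPM per kb in GRMAC and 697 CPM per kb in GRflox), Cyp2a4 (701 CPM per kb in GRMAC and 815 CPM per kb in GRflox) and Cyp2d26 (587 CPM per kb in GRMAC and 564 CPM per kb in GRflox). The places of Cyp3a25 and Cyp2a4 are exchanged between the genotypes, with library ranges of both genes that overlapped. At the other end, 7 tested members were under 1 CPM per kb, among them Cyp1a1 (0.237 CPM per kb in GRMAC and 0.149 CPM per kb in GRflox) and Cyp1b1 (0.101 CPM per kb in GRMAC and 0.168 CPM per kb in GRflox).

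**Figure D2:**
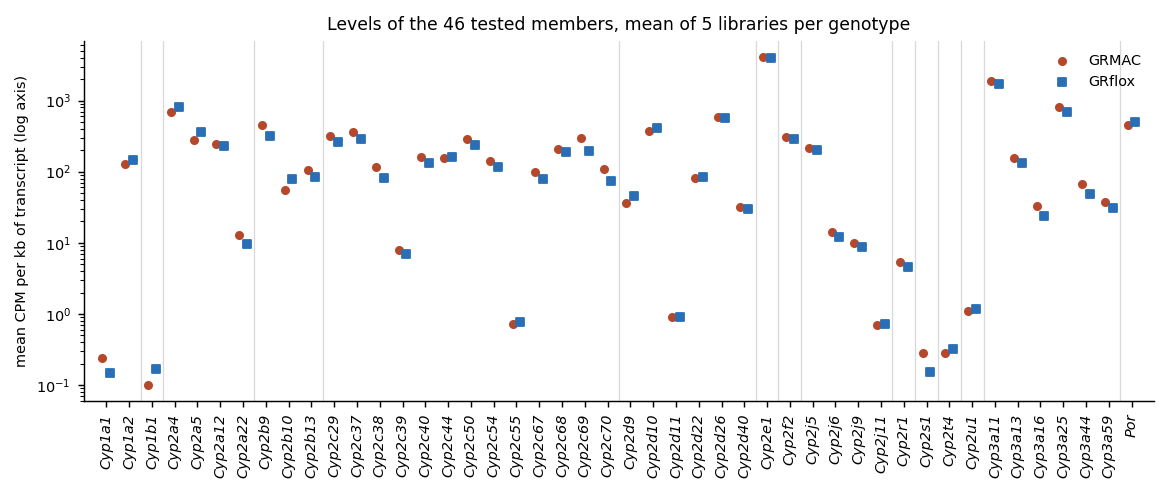
Mean CPM per kb of transcript (vertical axis, log scale) of the 46 tested members in GRMAC (circles) and GRflox (squares), 5 libraries each, ordered by subfamily. Levels run from 0.101 CPM per kb (Cyp1b1 in GRMAC) to 4079 CPM per kb (Cyp2e1 in GRMAC), and for most genes the 2 genotypes lie close together on this scale.

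The reductase came first in the chain of electron supply and was abundant in both genotypes. Por (NM_008898, chr5:135689145-135735326), which passes electrons from NADPH to every microsomal P450, had 1402, 1111, 1187, 1202 and 987 CPM in GRMAC libraries 1 to 5, against 1470.2, 1370.5, 1317, 1193 and 1327 CPM in GRflox libraries 1 to 5. GRMAC 1 was the highest GRMAC library and lay within the GRflox range, and the other 4 GRMAC libraries lay below 4 of the 5 GRflox libraries. Por averaged 1178 ± 152 CPM in GRMAC and 1336 ± 100.1 CPM in GRflox (SD, n = 5), a log2 fold change of −0.18 ± 0.09 SE that did not pass the test (adjusted p = 0.341, edgeR). Among 6 other electron donors and membrane partners, such as cytochrome b5 (Cyb5a, 630 ± 92.8 CPM in GRMAC and 597 ± 53.0 CPM in GRflox), none passed the test in edgeR or in the authors' deposited table. The lowest p of these was that of the cytochrome b5 reductase gene Cyb5r1 (log2 fold change 0.28, adjusted p = 0.166, edgeR).

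The Cyp1 family, induced through AHR, was represented by 1 abundant and 2 scarce genes. Cyp1a2, the constitutive hepatic enzyme that oxidises caffeine and aromatic amines, had 291, 305, 232, 225 and 207 CPM in GRMAC libraries 1 to 5, against 267, 278, 271, 373 and 224 CPM in GRflox libraries 1 to 5. GRflox 4 was the highest of all 10, and the remaining libraries were intermingled, at a log2 fold change of −0.16 ± 0.14 SE (adjusted p = 0.606, edgeR). Cyp1a1, the inducible partner of Cyp1a2, had 0.819, 0.462, 0.595, 0.499 and 0.823 CPM in GRMAC libraries 1 to 5, against 0.351, 0.301, 0.647, 0.451 and 0.258 CPM in GRflox libraries 1 to 5. Its log2 fold change was 0.66 ± 0.31 SE (adjusted p = 0.306, edgeR), and GRflox 3 lay among the GRMAC libraries. These Cyp1a1 values rest on 12 to 20 reads per GRMAC library and 7 to 17 per GRflox library.

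Cyp1b1, which is expressed mainly outside hepatocytes and oxidises oestrogens and polycyclic hydrocarbons (NM_009994, chr17:79706953-79715041), was the member whose genotypes separated. It had 0.474, 0.500, 0.516, 0.615 and 0.494 CPM in GRMAC libraries 1 to 5, against 0.780, 0.790, 0.837, 0.713 and 1.18 CPM in GRflox libraries 1 to 5. Every GRMAC library was below every GRflox library, and GRflox 5 stood above the other GRflox libraries. The log2 fold change of −0.72 ± 0.22 SE did not pass the test over all genes (adjusted p = 0.153, edgeR). The counts behind it were 11 to 16 reads per GRMAC library and 19 to 32 per GRflox library, and 7 stellate cell and fibroblast markers summed to 208 to 276 CPM in GRMAC and 201 to 249 CPM in GRflox; their part in the Cyp1b1 result was not tested. The deposited table of the authors gave Cyp1b1 a log2 fold change of −0.73 and an adjusted p of 0.164.

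The Cyp2a genes include the steroid 15-alpha-hydroxylase Cyp2a4 and the coumarin 7-hydroxylase Cyp2a5, whose coding sequences are 98.4% identical. Cyp2a4 had 1488, 1071, 1494, 687 and 1349.9 CPM in GRMAC libraries 1 to 5, against 1486, 1437, 1586, 1309.8 and 1263 CPM in GRflox libraries 1 to 5. GRMAC 4 was the lowest library of all, and GRMAC 1 and 3 were as high as the GRflox libraries. Cyp2a5 had 752, 601, 625, 365 and 499 CPM in GRMAC libraries 1 to 5, against 574, 522, 949, 1003 and 611 CPM in GRflox libraries 1 to 5. GRMAC 4 was again the lowest, and GRflox 3 and 4 were the highest. Neither Cyp2a4 (−0.22 ± 0.18 SE, adjusted p = 0.602, edgeR) nor Cyp2a5 (−0.37 ± 0.24 SE, adjusted p = 0.484, edgeR) passed the test. Without GRMAC 4 the log2 fold change of Cyp2a4 was −0.07, and that of Cyp2a5 was −0.24 without GRMAC 4 and −0.23 without GRflox 4. Of all 75-base stretches of the transcripts, 22.1% in Cyp2a4 and 25.5% in Cyp2a5 also occur in another gene's transcript, so the division of reads between them is uncertain. The other close pair, Cyp2a12 and Cyp2a22 (97.0% identical), had log2 fold changes of 0.11 and 0.40. Summed over the 4 genes, the subfamily had 2636, 2215, 2515, 1463 and 2297 CPM in GRMAC libraries 1 to 5, against 2422, 2352, 2918, 2768 and 2297 CPM in GRflox libraries 1 to 5, which averages 2225 ± 458 CPM in GRMAC and 2551 ± 275 CPM in GRflox (SD, n = 5). The log2 ratio of these means was −0.20, and −0.08 without GRMAC 4.

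The Cyp2b subfamily held the member closest to the threshold. Cyp2b9 and Cyp2b13 are female-predominant genes of the liver, and Cyp2b10 is the classical target of CAR, induced by phenobarbital; the other 2 genes, Cyp2b19 and Cyp2b23, had no more than 1 count in any library. The first 120 coding bases of the 3 expressed genes, from GENCODE vM21 transcripts, are printed 5′ to 3′ because they show how nearly alike Cyp2b9 and Cyp2b13 are; capitals mark the 25 positions at which the 3 genes are not all the same.
Cyp2b9: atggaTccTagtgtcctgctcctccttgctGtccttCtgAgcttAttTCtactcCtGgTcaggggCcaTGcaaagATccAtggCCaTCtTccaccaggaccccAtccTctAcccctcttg
Cyp2b13: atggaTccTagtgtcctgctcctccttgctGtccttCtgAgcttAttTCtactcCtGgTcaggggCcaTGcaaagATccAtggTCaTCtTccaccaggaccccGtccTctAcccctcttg
Cyp2b10: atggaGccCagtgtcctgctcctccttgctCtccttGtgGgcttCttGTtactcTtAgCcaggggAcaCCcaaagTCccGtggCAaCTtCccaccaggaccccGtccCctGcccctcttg
In this stretch Cyp2b9 differs from Cyp2b13 at 2 positions and from Cyp2b10 at 24. Over the whole coding sequence Cyp2b9 is 92.7% identical to Cyp2b13 and 87.8% to Cyp2b10, and 5.16% of its 75-base stretches occur in another gene, against 16.4% for Cyp2b13 and 3.15% for Cyp2b10.

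Cyp2b9 (NM_010000, chr7:26173409-26210660) had 732, 929, 1028, 829.8 and 712 CPM in GRMAC libraries 1 to 5, against 517, 515, 663, 769.9 and 559.8 CPM in GRflox libraries 1 to 5. GRMAC 3 was the highest of all 10 libraries, and GRMAC 1 and 5 lay below GRflox 4, which was the library that made the genotypes overlap. Cyp2b9 averaged 846 ± 133 CPM in GRMAC and 605 ± 110.1 CPM in GRflox (SD, n = 5). The log2 fold change was 0.48 ± 0.13 SE (adjusted p = 0.110, edgeR), and in the authors' deposited table it was 0.48 with an adjusted p of 0.0166. Without GRflox 4 the log2 fold change was 0.59 (adjusted p = 0.0562, edgeR), and over all single libraries left out the adjusted p ran from 0.0562 to 0.244.

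Cyp2b13 (NM_007813, chr7:26061495-26096196) had 145, 235, 214, 218 and 175 CPM in GRMAC libraries 1 to 5, against 98.0, 122, 169, 273 and 128 CPM in GRflox libraries 1 to 5. GRflox 4 was the highest of all, and 3 of the other 4 GRflox libraries lay below every GRMAC library. Its log2 fold change was 0.32 ± 0.28 SE (adjusted p = 0.614, edgeR). Cyp2b10 (NM_009999, chr7:25897658-25926624) had 134, 28.4, 97.0, 228 and 34.3 CPM in GRMAC libraries 1 to 5, against 165, 105, 131, 170.2 and 174 CPM in GRflox libraries 1 to 5. It spread from 28.4 to 228 CPM among the GRMAC libraries, with GRMAC 2, 3 and 5 below and GRMAC 4 above every GRflox library, and its log2 fold change of −0.52 ± 0.55 SE did not pass the test (adjusted p = 0.698, edgeR). GRMAC 2, the lowest for Cyp2b10, was the second highest for Cyp2b9 and the highest GRMAC library for Cyp2b13, so the CAR target and the female-predominant pair did not have the same order of libraries. The subfamily sum averaged 1148 ± 177 CPM in GRMAC and 912 ± 189 CPM in GRflox (SD, n = 5).

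**Figure D3:**
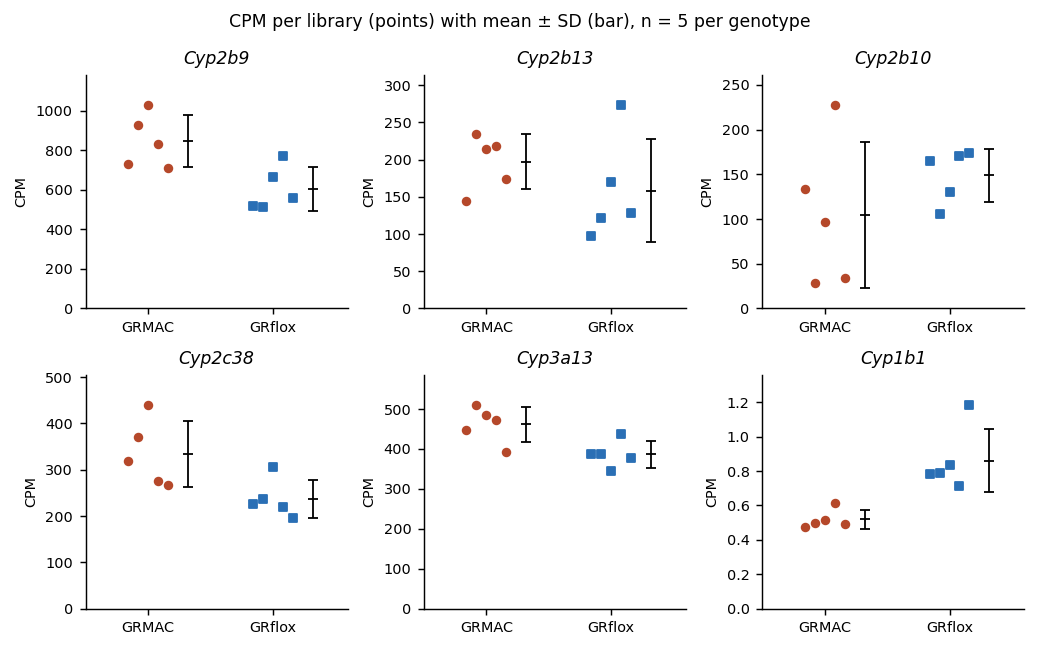
CPM per library (vertical axis, points) with the mean ± SD (bar, n = 5) for Cyp2b9, Cyp2b13, Cyp2b10, Cyp2c38, Cyp3a13 and Cyp1b1, GRMAC on the left and GRflox on the right of each panel. Cyp2b9 averages 846 CPM in GRMAC and 605 CPM in GRflox with overlapping points, Cyp2b10 spreads from 28.4 to 228 CPM in GRMAC, and Cyp1b1 is the panel without overlap.

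The promoters of the 3 Cyp2b genes are shown because Cyp2b9 and Cyp2b13 also share their upstream sequence. The 250 bases before each start are taken from RefSeq (GRCm38.p6, the assembly that mm10 names, all on the plus strand): chr7:26173159-26173408 for Cyp2b9, chr7:26061245-26061494 for Cyp2b13 and chr7:25897408-25897657 for Cyp2b10. Capitals mark AGGTCA, the core hexamer bound by many nuclear receptors, searched on both strands.
Cyp2b9 promoter: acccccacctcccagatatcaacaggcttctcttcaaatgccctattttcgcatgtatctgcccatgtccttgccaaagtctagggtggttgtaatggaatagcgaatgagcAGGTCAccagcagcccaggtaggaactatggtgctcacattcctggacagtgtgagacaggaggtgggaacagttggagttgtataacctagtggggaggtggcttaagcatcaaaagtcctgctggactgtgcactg
Cyp2b13 promoter: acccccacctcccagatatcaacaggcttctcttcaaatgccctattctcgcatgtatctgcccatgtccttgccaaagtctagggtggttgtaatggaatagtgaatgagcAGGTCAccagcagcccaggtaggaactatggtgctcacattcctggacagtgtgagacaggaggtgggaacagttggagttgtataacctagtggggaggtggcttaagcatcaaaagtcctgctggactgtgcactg
Cyp2b10 promoter: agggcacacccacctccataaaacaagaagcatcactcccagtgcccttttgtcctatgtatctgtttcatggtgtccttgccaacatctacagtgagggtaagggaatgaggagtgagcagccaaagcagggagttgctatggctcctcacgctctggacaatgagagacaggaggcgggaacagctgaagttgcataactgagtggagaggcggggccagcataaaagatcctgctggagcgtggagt
The Cyp2b9 and Cyp2b13 windows differ at 2 of 250 bases, and each holds AGGTCA with its first base at −138 from the start, while these letters are not in the Cyp2b10 window. AGGTCA was in 15 of 51 member promoters found in the RefSeq table, against 13.8% of all 27025 promoters of the same length. The STAT motif TTCNNNGAA was in 2 of the 51, against 7.18% of all promoters. A match is a description of the letters and not a bound site.

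The Cyp2c subfamily, whose enzymes include arachidonic acid epoxygenases and oxidisers of drugs, was the largest, with 15 genes, of which 13 were tested. The log2 fold change was positive for 11 of the 13 and negative for Cyp2c44 (−0.04) and Cyp2c55 (−0.10), with a median of 0.26; none passed the test over all genes with edgeR. The sums over the subfamily were 4297, 5076, 4116, 3223 and 3977 CPM in GRMAC libraries 1 to 5, against 2660.2, 3069.5, 3447, 3987 and 3572 CPM in GRflox libraries 1 to 5. GRMAC 2 was the highest and GRflox 1 the lowest, and GRMAC 4 and 5 lay within the GRflox range. The sums averaged 4138 ± 665 CPM in GRMAC and 3347 ± 505 CPM in GRflox (SD, n = 5), a log2 ratio of 0.31 that ran from 0.22 (without GRMAC 2) to 0.38 (without GRMAC 4) when single libraries were left out.

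Cyp2c38, an arachidonic acid epoxygenase (NM_010002, chr19:39389556-39463075), had 318, 370.3, 439, 275 and 267 CPM in GRMAC libraries 1 to 5, against 226, 238, 305, 219 and 197 CPM in GRflox libraries 1 to 5. GRMAC 3 was the highest library, and GRMAC 4 and 5 lay below the highest GRflox library, GRflox 3. Cyp2c38 averaged 334 ± 71.6 CPM in GRMAC and 237 ± 41.1 CPM in GRflox (SD, n = 5), a log2 fold change of 0.50 ± 0.15 SE (adjusted p = 0.158, edgeR). The log2 fold change in the authors' deposited table was 0.49, with an adjusted p of 0.0329. Its nearest relative, Cyp2c39, is 94.2% identical in coding sequence and shares 1.86% of the 75-base stretches of Cyp2c38, with 0.19 as its own log2 fold change (adjusted p = 0.533, edgeR).

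Cyp2c37 was the Cyp2c gene with the highest level per kb of transcript. It had 647, 922, 630.1, 524 and 611 CPM in GRMAC libraries 1 to 5, against 421, 408, 515, 758 and 557 CPM in GRflox libraries 1 to 5. GRMAC 2 was the highest, GRflox 4 the second highest, and the other libraries were mixed, at a log2 fold change of 0.33 ± 0.19 SE (adjusted p = 0.429, edgeR). Cyp2c70, the enzyme that makes muricholic acids of mouse bile and a gene with no shared 75-base stretch, was chosen after its values were seen. It had 213, 208, 188, 152 and 170.0 CPM in GRMAC libraries 1 to 5, against 57.2, 100, 194, 125 and 159.6 CPM in GRflox libraries 1 to 5. GRMAC libraries kept to a narrow range, whereas GRflox libraries spread from 57.2 to 194 CPM, and the log2 fold change of 0.55 ± 0.29 SE did not pass the test (adjusted p = 0.381, edgeR).

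Cyp2c40, Cyp2c67, Cyp2c68 and Cyp2c69 form a block of near-copies in which 28.5% (Cyp2c68) to 57.1% (Cyp2c40) of the 75-base stretches occur in another gene, so their single values are uncertain. Their log2 fold changes were 0.26, 0.36, 0.16 and 0.58. Cyp2c69 had 557, 586, 464, 266 and 549 CPM in GRMAC libraries 1 to 5, against 220.0, 300.3, 285, 315 and 504 CPM in GRflox libraries 1 to 5. GRMAC 4 was the lowest GRMAC library and GRflox 5 the highest GRflox library, and those 2 libraries made the overlap (0.58 ± 0.26 SE, adjusted p = 0.311, edgeR). The remaining tested genes, Cyp2c29, Cyp2c50 and Cyp2c54, had log2 fold changes of 0.25, 0.29 and 0.25, while Cyp2c65 and Cyp2c66 were below the filter. Of the 75-base stretches, 13.8% in Cyp2c37, 17.8% in Cyp2c50 and 14.1% in Cyp2c54 occur in another gene.

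The Cyp2d genes, which include steroid hydroxylases such as the male-predominant Cyp2d9, differed in sum by less than the spread between libraries, at 1943 ± 232 CPM in GRMAC and 1989 ± 174 CPM in GRflox (SD, n = 5). Of 8 genes 6 were tested, with 2 positive and 4 negative log2 fold changes. Cyp2d26, the Cyp2d gene with the highest level per kb, had 1048, 1128, 991, 831 and 991 CPM in GRMAC libraries 1 to 5, against 909.7, 1007, 867, 1105 and 901 CPM in GRflox libraries 1 to 5. The libraries of the genotypes were intermingled (0.06 ± 0.09 SE, adjusted p = 0.792, edgeR). Cyp2d10, which shares 26.7% of its 75-base stretches with other genes, chiefly Cyp2d11, had 612, 761, 566, 496 and 663 CPM in GRMAC libraries 1 to 5, against 673, 757, 656, 703 and 646 CPM in GRflox libraries 1 to 5. GRMAC 2 was the highest of all and GRMAC 4 the lowest (−0.15 ± 0.10 SE, adjusted p = 0.487, edgeR). Cyp2d9, Cyp2d11, Cyp2d22 and Cyp2d40 had log2 fold changes of −0.30, −0.01, −0.04 and 0.10, and Cyp2d12 and Cyp2d34 were below the filter.

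Cyp2e1, which oxidises ethanol, acetone and paracetamol in pericentral hepatocytes, is the single gene of its subfamily and the most abundant P450 here. It had 9124, 8478, 6930.2, 6974 and 5877 CPM in GRMAC libraries 1 to 5, against 7067, 7267, 6482, 8552 and 7025 CPM in GRflox libraries 1 to 5. GRMAC 1 was the highest and GRMAC 5 the lowest of all 10 libraries, so the GRMAC libraries enclosed the GRflox range. Cyp2e1 averaged 7477 ± 1306 CPM in GRMAC and 7279 ± 769 CPM in GRflox (SD, n = 5), a log2 fold change of 0.04 ± 0.12 SE (adjusted p = 0.903, edgeR). Cyp2f2, a periportal enzyme known for activating naphthalene, had 568, 759, 484, 476 and 565 CPM in GRMAC libraries 1 to 5, against 503, 523, 499, 616 and 562 CPM in GRflox libraries 1 to 5. GRMAC 2 stood above the rest, and the other libraries of both genotypes lay close together (0.08 ± 0.12 SE, adjusted p = 0.784, edgeR).

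Of the Cyp2j genes, whose enzymes also epoxidise arachidonic acid, 4 of 7 were tested, and none of the 7 shares a 75-base stretch with another gene. Cyp2j5, the main hepatic one, had 517, 569, 483, 449 and 482 CPM in GRMAC libraries 1 to 5, against 416, 481, 419.8, 533 and 517 CPM in GRflox libraries 1 to 5. The genotypes overlapped almost fully (0.08 ± 0.09 SE, adjusted p = 0.711, edgeR). Cyp2j6 had 47.4, 55.5, 51.1, 48.2 and 50.6 CPM in GRMAC libraries 1 to 5, against 38.9, 46.9, 38.8, 50.0 and 46.1 CPM in GRflox libraries 1 to 5. GRflox 4 was inside the GRMAC range, and the other 4 GRflox libraries lay below every GRMAC library, at a log2 fold change of 0.20 ± 0.08 SE (adjusted p = 0.224, edgeR). Cyp2j9 and Cyp2j11 had log2 fold changes of 0.17 and −0.05, Cyp2j8 was below the filter, and Cyp2j12 and Cyp2j13 had no count. The subfamily sum averaged 572 ± 48.8 CPM in GRMAC and 537 ± 59.9 CPM in GRflox (SD, n = 5).

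Cyp2r1, Cyp2u1, Cyp2s1 and Cyp2t4, each the single gene of its subfamily, were scarce in liver. Cyp2r1, a vitamin D 25-hydroxylase, had 8.06, 10.9, 8.81, 7.88 and 7.77 CPM in GRMAC libraries 1 to 5, against 6.17, 8.09, 6.92, 9.39 and 6.20 CPM in GRflox libraries 1 to 5. GRMAC 2 was the highest and GRflox 4 the second highest, with the rest between 6.17 and 8.81 CPM (0.24 ± 0.14 SE, adjusted p = 0.403, edgeR). Cyp2u1, which hydroxylates long-chain fatty acids, had 4.70, 4.31, 3.69, 7.49 and 3.70 CPM in GRMAC libraries 1 to 5, against 4.25, 4.96, 4.22, 6.53 and 5.39 CPM in GRflox libraries 1 to 5. GRMAC 4 and GRflox 4 stood above all other libraries (−0.08 ± 0.20 SE, adjusted p = 0.869, edgeR).

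Cyp2s1, an enzyme found chiefly in epithelia of other organs, had 0.689, 0.808, 0.476, 1.42 and 0.535 CPM in GRMAC libraries 1 to 5, against 0.507, 0.602, 0.304, 0.225 and 0.480 CPM in GRflox libraries 1 to 5. GRMAC 4 was far above the rest, and the log2 fold change of 0.89 ± 0.36 SE, the highest of the members, did not pass the test (adjusted p = 0.233, edgeR) and was 0.56 without GRMAC 4. Cyp2t4 had 0.560, 0.269, 0.278, 0.307 and 0.699 CPM in GRMAC libraries 1 to 5, against 0.234, 0.602, 0.190, 0.751 and 0.664 CPM in GRflox libraries 1 to 5. Its genotypes overlapped (−0.22 ± 0.42 SE, adjusted p = 0.833, edgeR), and Cyp2g1 and Cyp2w1 were below the filter, Cyp2w1 with no count.

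The Cyp3a genes oxidise steroids, bile acids and a large share of drugs, and several of them are controlled by PXR. All 6 tested genes had a positive log2 fold change, from 0.13 (Cyp3a11) to 0.47 (Cyp3a44), and none passed the test over all genes with edgeR. Cyp3a57 was below the filter. The sums over the 7 genes were 5613, 8986, 7629, 5214 and 6118 CPM in GRMAC libraries 1 to 5, against 4820.3, 6857, 5535, 8283 and 4446 CPM in GRflox libraries 1 to 5. GRMAC 2, GRflox 4 and GRMAC 3 had the highest sums, and the genotypes overlapped throughout, at 6712 ± 1566 CPM in GRMAC and 5988 ± 1579 CPM in GRflox (SD, n = 5). The log2 ratio of the means was 0.16, with 0.04 when GRMAC 2 was left out and 0.31 when GRflox 4 was left out.

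Cyp3a11, the main drug-oxidising enzyme of the mouse subfamily, had 3686, 5665, 4956, 3371 and 4198 CPM in GRMAC libraries 1 to 5, against 3289.5, 4481, 3813, 5447 and 3011 CPM in GRflox libraries 1 to 5. GRMAC 2 and GRflox 4 were the highest, and GRflox 5 and 1 the lowest (0.13 ± 0.18 SE, adjusted p = 0.772, edgeR). Cyp3a13, which is also strongly expressed in intestine and shares no 75-base stretch with another gene (NM_007819, chr5:137892933-137921619), had 447, 509, 486, 473 and 393 CPM in GRMAC libraries 1 to 5, against 388, 387, 345, 438 and 376 CPM in GRflox libraries 1 to 5. GRMAC 1 to 4 were above every GRflox library, and GRMAC 5 lay within the GRflox range. Cyp3a13 averaged 462 ± 44.4 CPM in GRMAC and 387 ± 33.6 CPM in GRflox (SD, n = 5), with the smallest SD relative to the mean of the tested Cyp3a genes (9.62% in GRMAC and 8.68% in GRflox) and a log2 fold change of 0.26 ± 0.08 SE (adjusted p = 0.160, edgeR). It was 0.25 in the authors' deposited table, with an adjusted p of 0.0686.

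The other Cyp3a genes varied within a genotype far more than between genotypes, and they did so in 2 ways. This pattern was chosen after the values were seen. Cyp3a16 and Cyp3a44 are female-predominant genes, and the first 120 coding bases of these 2 and of Cyp3a25 (GENCODE vM21 transcripts, 5′ to 3′) are printed to set 2 close copies beside a more distant gene of the cluster; capitals mark the 38 positions at which the 3 are not all the same.
Cyp3a16: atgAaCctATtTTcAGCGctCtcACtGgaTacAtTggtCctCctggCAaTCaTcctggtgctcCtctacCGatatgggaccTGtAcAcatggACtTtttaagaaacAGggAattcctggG
Cyp3a44: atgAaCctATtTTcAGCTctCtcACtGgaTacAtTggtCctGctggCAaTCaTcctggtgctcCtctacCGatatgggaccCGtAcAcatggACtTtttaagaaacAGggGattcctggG
Cyp3a25: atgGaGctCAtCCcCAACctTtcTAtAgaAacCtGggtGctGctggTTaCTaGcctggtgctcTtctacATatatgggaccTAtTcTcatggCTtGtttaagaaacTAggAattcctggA
Cyp3a16 differs from Cyp3a44 at 4 of these positions and from Cyp3a25 at 36. Over the whole coding sequence Cyp3a16 and Cyp3a44 are 92.4% identical, and 1.63% of the 75-base stretches of Cyp3a16 and 11.02% of those of Cyp3a44 occur in another gene.

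Cyp3a16 had 40.1, 32.3, 72.0, 31.8 and 105 CPM in GRMAC libraries 1 to 5, against 12.95, 10.6, 33.2, 9.24 and 141 CPM in GRflox libraries 1 to 5. GRflox 5 was the highest of all, GRflox 1, 2 and 4 lay below every GRMAC library, and GRflox 3 lay just above GRMAC 2 and 4. Cyp3a44 had 75.5, 121, 191, 88.0 and 186 CPM in GRMAC libraries 1 to 5, against 59.0, 44.98, 87.1, 41.1 and 247 CPM in GRflox libraries 1 to 5. GRflox 5 was again the highest, and GRflox 1, 2 and 4 lay below every GRMAC library. Their log2 fold changes were 0.44 ± 0.84 SE and 0.47 ± 0.56 SE (adjusted p = 0.838 and adjusted p = 0.734, edgeR). Cyp3a41a, a close relative outside the symbol pattern, had 192, 102, 180.0, 128 and 168 CPM in GRMAC libraries 1 to 5, against 98.1, 61.3, 147, 46.1 and 298 CPM in GRflox libraries 1 to 5. GRflox 5 was the highest and GRflox 4 the lowest for Cyp3a41a as for both others.

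Cyp3a25 had 1319, 2489.9, 1851, 1204 and 1195 CPM in GRMAC libraries 1 to 5, against 1038, 1844, 1218, 2223 and 649 CPM in GRflox libraries 1 to 5. GRMAC 2 and GRflox 4 were highest, and GRflox 5 was the lowest of all. Cyp3a59, 97.5% identical to Cyp3a25 in coding sequence and sharing 10.8% of its 75-base stretches, had 44.1, 169, 72.2, 46.6 and 40.9 CPM in GRMAC libraries 1 to 5, against 32.9, 89.7, 39.0, 125 and 22.7 CPM in GRflox libraries 1 to 5. Its order repeated that of Cyp3a25 at both ends: GRMAC 2 and GRflox 4 were highest and GRflox 5 lowest. Their log2 fold changes were 0.21 ± 0.35 SE and 0.27 ± 0.60 SE (adjusted p = 0.813 and adjusted p = 0.866, edgeR). GRflox 4 and GRflox 5 were at opposite ends of the GRflox libraries for these 2 sets of genes. Cyp3a11 stood with Cyp3a25 in this, although its coding sequence is 94.9% identical to that of Cyp3a44, 92.8% to that of Cyp3a16 and 76.1% to that of Cyp3a25.

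**Figure D4:**
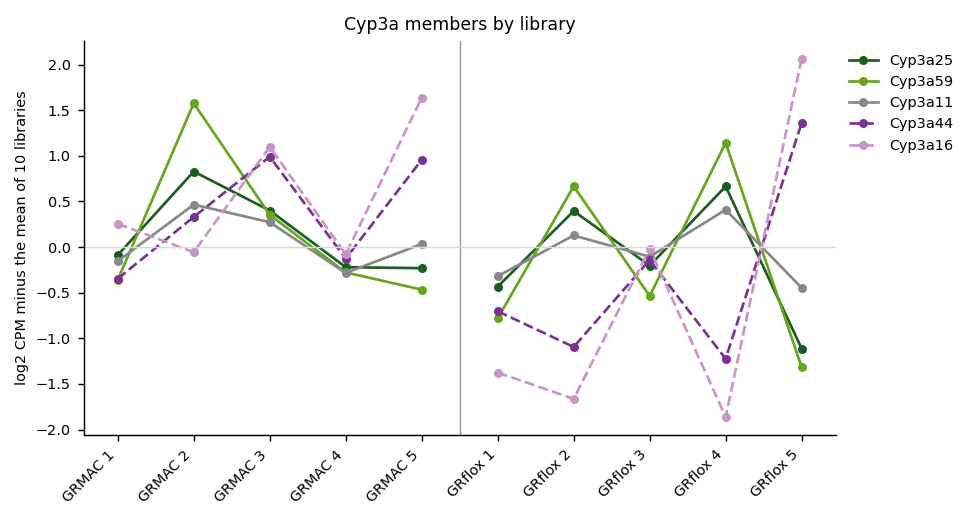
Log2 CPM of 5 Cyp3a genes in each library minus that gene's mean over all 10 libraries (vertical axis), GRMAC libraries on the left and GRflox libraries on the right; each line joins the values of 1 gene, and the numbers of the libraries have no order. In GRflox 5 the dashed lines of Cyp3a16 (141 CPM) and Cyp3a44 (247 CPM) are at their highest and the solid lines of Cyp3a25 (649 CPM), Cyp3a59 (22.7 CPM) and Cyp3a11 (3011 CPM) are at their lowest.

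Single libraries were high or low across subfamilies. GRMAC 2 had the highest GRMAC value for 27 of the 46 tested members (58.7%), against 24.1% of all tested genes, and GRflox 4 had the highest GRflox value for 26 members (56.5%), against 23.01% of all tested genes. GRMAC 4 was the lowest GRMAC library for 20 members (43.5%), against 24.3% of all tested genes. Members that share regulators or reads are counted singly in these shares, which are a description with no test. In 14 tested members the standard deviation exceeded 40% of the mean in at least 1 genotype, led by Cyp2b10 in GRMAC (78.5%) and by Cyp3a16 in GRflox (136%). The labels give no batch or date for the libraries.

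**Figure D5:**
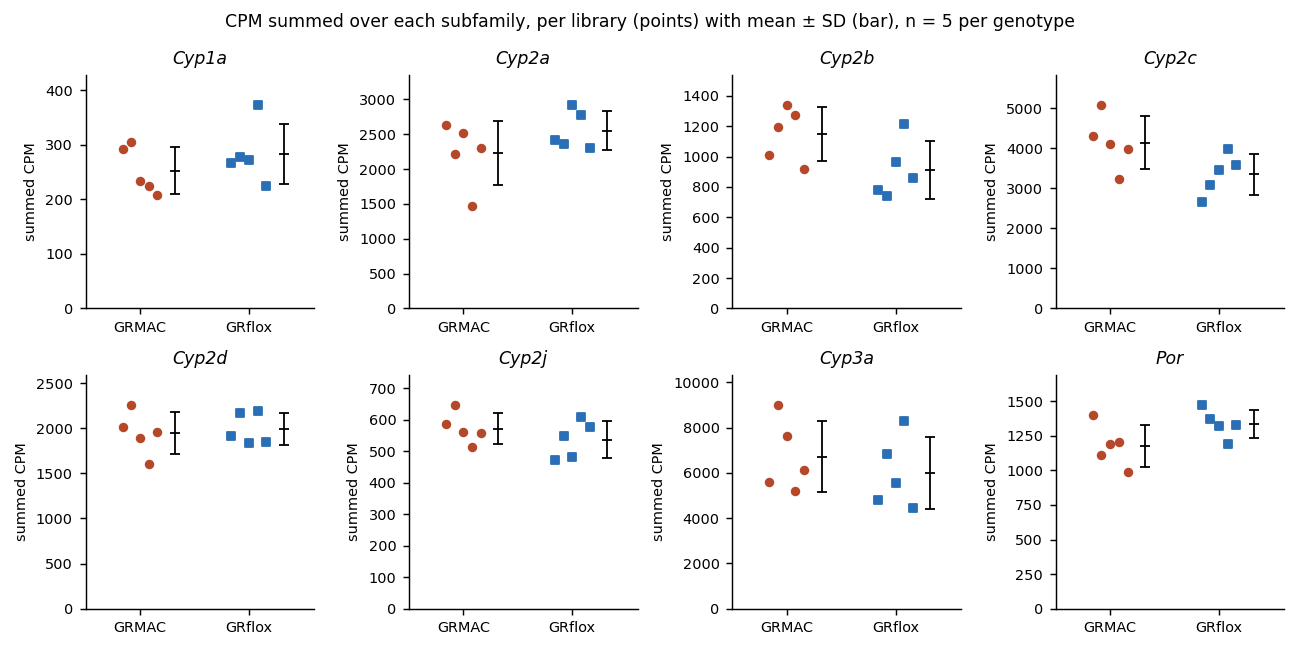
CPM summed over the members of each subfamily with several genes, and CPM of Por, per library (vertical axes, from 0), with the mean ± SD (bar, n = 5), GRMAC on the left and GRflox on the right of each panel. The genotypes overlap in every panel; the Cyp2c sums average 4138 CPM in GRMAC and 3347 CPM in GRflox, and the Cyp2d sums 1943 CPM in GRMAC and 1989 CPM in GRflox.

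Regulators of the P450 genes were taken as a list of 26 genes, of which 25 were tested. None passed with edgeR, 12 had a positive and 13 a negative log2 fold change, and the median was −0.01. At an unadjusted p under 0.05 in edgeR there were 9 of the 25, against 16.3% of all tested genes. By the authors' deposited table, 1 of the 25 was higher and 2 were lower in GRMAC, against 1.84% and 1.49% of all genes with an adjusted p there. Arnt, the partner of AHR, was at 76.8 ± 6.19 CPM in GRMAC and 60.4 ± 3.24 CPM in GRflox with no overlap between libraries (log2 fold change 0.35 ± 0.06 SE, adjusted p = 0.0505, edgeR; adjusted p = 0.000386 in the authors' deposited table). Nfe2l2, which encodes NRF2, was at 68.7 ± 5.23 CPM in GRMAC and 84.0 ± 3.72 CPM in GRflox (−0.29, adjusted p = 0.0649, edgeR; adjusted p = 0.00258 in the authors' deposited table). The receptors that the P450 genes are best known for did not pass in either: the log2 fold change was 0.42 ± 0.18 SE for Ahr, −0.11 ± 0.12 for Nr1i2 (PXR), 0.11 ± 0.08 for Nr1i3 (CAR) and 0.01 ± 0.08 for Hnf4a (adjusted p = 0.285, 0.685, 0.558 and 0.957 in that order, edgeR).

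Haem, the cofactor of every P450, was followed through 10 synthesis and 4 breakdown genes, none of which passed with edgeR. Alas1, the rate-limiting enzyme of hepatic haem synthesis, was at 543 ± 209 CPM in GRMAC and 586 ± 118 CPM in GRflox (−0.11, adjusted p = 0.871, edgeR). Among the breakdown genes the lowest p was that of the biliverdin reductase gene Blvrb (−0.12, adjusted p = 0.674, edgeR).

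Phase I enzymes outside these families, 24 tested, had 16 positive and 8 negative log2 fold changes, and none passed with edgeR. By the authors' deposited table, 3 of the 24 were higher and 2 lower in GRMAC, against 1.84% and 1.49% of all genes with an adjusted p there. The carboxylesterase genes Ces3b (0.60) and Ces2e (0.25), which have close relatives, were among the higher ones, and the epoxide hydrolase gene Ephx2 (−0.26) and the fatty aldehyde dehydrogenase gene Aldh3a2 (−0.33) were the lower ones.

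Growth hormone and STAT5 control genes, 12 tested, had 9 positive and 3 negative log2 fold changes with a median of 0.17, and none passed with edgeR or in the authors' deposited table. Bcl6, a repressor of female-predominant genes in mouse liver, had the lowest p (59.6 ± 9.91 CPM in GRMAC and 80.1 ± 17.6 CPM in GRflox, −0.43, adjusted p = 0.204, edgeR). Of 8 female-predominant genes outside the P450s 5 were positive and 3 negative (median 0.22), and they summed to 1224 to 1485 CPM in GRMAC and 695 to 1290 CPM in GRflox. Their part in the Cyp2b9, Cyp3a16 and Cyp3a44 values was not tested. No list of female-predominant P450 members was drawn up, so the members named as such do not show how such genes moved as a set. Abundant members not named as such include negative ones, among them Cyp2a4 (log2 fold change −0.22).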

How the data were processed

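The authors deposited whole-number read counts per gene for 10 libraries. Per the submitters' processing notes the tools were HISAT2 2.1.0 and DESeq2 1.24.0 with genome build mm10; the counting program, its treatment of reads that match several genes, the strand setting and the read length are not given in the sources used here. The authors' comparison table gives log2 fold changes and adjusted p-values, per the file headers; 10 columns of values per library in it were not used.

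Genes were filtered with filterByExpr (12558 of 19764 kept, 0.0348% of counts removed), scaled by TMM and tested with edgeR 4.0.16 (R 4.3.3, robust quasi-likelihood, Benjamini-Hochberg threshold 0.05). On counts simulated with edgeR's own estimates of spread, DESeq2, the tool behind the deposited adjusted p-values, made more false calls than edgeR. Being built from edgeR's fit, that setting need not match the data and cannot decide which tool is right for them. CPM values are means ± SD. Levels per kb use GENCODE vM21 transcripts, as do the 75-base stretches, which stand in for reads that could match several genes, and coding identity (Biopython 1.88). Cyp2c44 was matched as Cyp2c23. The alternatives were other scalings, filters, tests and sets of libraries.

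Values in every library are given for Por, for members past the threshold in edgeR or the deposited table, and for the member with the lowest p and the one with the highest mean CPM in each subfamily; others so given (Cyp2b10, Cyp2b13, Cyp2c69, Cyp2c70, Cyp3a16, Cyp3a25, Cyp3a44, Cyp3a59, Cyp3a41a) were added after their values were seen. The members and lists were chosen with earlier results of these data known. Some genes of the lists are not reported here.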

Additional observations from a re-analysis of the deposited data

Results flagged for a closer look

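Among named members and sums of subfamilies, 56 groups of 5 libraries were examined, and in 2 the gap between the highest library and the next, as a share of the group's range, was above Dixon's critical value for 5 values; chance gives about 1 in 20 groups, or 3. Cyp1b1 in GRflox 5 was at 1.18 CPM, where the other GRflox libraries were at 0.713 to 0.837 CPM (gap 0.736 of the range). Without GRflox 5 the log2 fold change of Cyp1b1 was −0.58 (adjusted p = 0.310, edgeR). Cyp2u1 in GRMAC 4 was at 7.49 CPM, where the other GRMAC libraries were at 3.69 to 4.70 CPM (gap 0.735 of the range). Without GRMAC 4 the log2 fold change of Cyp2u1 was −0.31 (adjusted p = 0.338, edgeR).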

How the results depend on the processing

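The count of genes past the threshold, 22 of 12558, was 34 with no filter on low counts, 437 with DESeq2, 8 each with limma-voom and with non-robust edgeR, 7 with the GC and length correction, 68 without GRflox 4 and GRMAC 4, and 5 to 47 when 1 library was left out; the cause was not tested. Of the members, none passed with edgeR, 2 passed with DESeq2 (Cyp2b9, adjusted p = 0.0166, and Cyp2c38, adjusted p = 0.0324) and none passed under the other alternatives, apart from the replicate block. With the library number as a replicate block, 81 genes passed and 1 member, Cyp2c38 (log2 fold change 0.49, adjusted p = 0.0136, edgeR). Same-numbered libraries deviated together with correlations of −0.11 to 0.17, and not every library was closest to its own number. These values cannot show whether same-numbered libraries belong together, and the labels do not state it.

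Of 416 fold changes of 21 named members under 20 alternatives, 408 kept their direction and side of the threshold, 3 passed it as given above and 5 changed sign, all near 0. Cyp2t4 had 0.076 without GRflox 4 and GRMAC 4. With single libraries left out, Cyp2e1 ran from −0.039 to 0.11 (−0.01 without GRMAC 2), Cyp2f2 from −0.042 to 0.14, and Cyp2u1 from −0.31 to 0.023. The median log2 fold change of the tested members, 0.17, ran from 0.03 (without GRMAC 2) to 0.28 (without GRflox 4 and GRMAC 4), and the sums of subfamilies moved by less than 1 SD. Low counts limit Cyp1b1, Cyp2s1 and Cyp2t4, and shared sequence limits the Cyp2a pairs and the Cyp2c40 block.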

Other observations

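Genes of the 2 ends of the liver lobule, taken as lists outside the P450s, gave no call with edgeR or in the authors' deposited table. Of 13 pericentral genes, which share their zone with Cyp2e1 and Cyp1a2, 7 were positive and 6 negative (median log2 fold change 0.02). Their lowest p was that of the ornithine aminotransferase gene Oat, at 640 ± 78.3 CPM in GRMAC and 778 ± 118 CPM in GRflox (−0.28, adjusted p = 0.215, edgeR). Of 13 periportal genes, which share their zone with Cyp2f2, 4 were positive and 9 negative (median −0.12), and the gluconeogenic gene Pck1 had the lowest p, at 3420 ± 768 CPM in GRMAC and 4752 ± 753 CPM in GRflox (−0.47, adjusted p = 0.176, edgeR). Of 9 male-predominant genes outside these families 4 were positive and 5 negative, led by Cyp4a12a at 0.337 ± 0.178 CPM in GRMAC and 1.17 ± 1.45 CPM in GRflox (−1.78, adjusted p = 0.308, edgeR). Sult3a1, a female-predominant sulfotransferase gene named after its values were seen, was at 159 to 253 CPM in GRMAC and 42.2 to 196 CPM in GRflox (1.04 ± 0.39 SE, adjusted p = 0.232, edgeR).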
